A study of Arabidopsis arenosa x Arabidopsis thaliana and Arabidopsis thaliana and Arabidopsis arenosa with 5 samples.

Results

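FLOWERING LOCUS C (FLC) and its relatives of the MADS AFFECTING FLOWERING (MAF) group form a small family of floral repressors. The members were taken by locus: FLC (AT5G10140), FLM (AT1G77080, named MAF1 in RefSeq), MAF2 (AT5G65050, named AGL31 in RefSeq), MAF3 (AT5G65060), MAF4 (AT5G65070) and MAF5 (AT5G65080). They are 6 of the 32313 genes in the parental tables, with 16 of the 38431 listed transcripts. FLM stood in all 5 tables, with 3 of its transcripts. The other members were listed in the parental tables only, so no allele values or totals of them are available for the allotetraploids.

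The data are messenger RNA levels of mature rosette leaves taken before bolting, in 5 groups of tetraploid plants grown with 16 h of light at 22 °C and 8 h of dark at 20 °C. A. suecica, F8 and F1 plants carry the genomes of both species: A. suecica is the natural allotetraploid, F8 an allotetraploid of generation F8, and F1 a resynthesized allotetraploid of generation F1. The others are autotetraploid A. arenosa of the accession Care-1 and autotetraploid A. thaliana of the accession Landsberg erecta. Plants of A. thaliana were harvested at 3 to 4 weeks and those of every other group at 6 to 7 weeks, so age and species cannot be told apart in any comparison with A. thaliana. The series asks how differences between the parental species carry over to the alleles in a hybrid nucleus. Levels are given in RPKM, read numbers scaled to the length of the transcript and to the mapped reads of the library. A. suecica and F8 have 1 library each, and the F1, A. arenosa and A. thaliana have 3 replicate columns each. Nothing states that the replicate columns came from separate plants, and p-values measure only the spread between columns.

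Proteins of the family belong to the MADS-domain transcription factors. FLC is known to hold back flowering by binding SOC1 and FT, genes that promote it, together with its partner SVP, and prolonged cold silences FLC through Polycomb proteins. FRIGIDA (FRI) is known to raise FLC, and the autonomous pathway lowers it. Landsberg erecta is known to carry a loss-of-function FRI allele and a weak FLC allele. A. arenosa is known to carry more than 1 copy of FLC; each row here is named for an A. thaliana transcript, so such copies cannot be told apart.

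The first coding exon holds the MADS domain, and it shows how alike the members are and where a read could fit more than 1 of them. The sequences below are A. thaliana RefSeq sequences of assembly TAIR10.1, 185 bases each from the start codon (for MAF5 the last 185 of 206 coding bases of its exon), read 5′ to 3′ on the coding strand, with capitals at bases that differ from FLC.
FLC, chr5:3179155-3179339, minus strand: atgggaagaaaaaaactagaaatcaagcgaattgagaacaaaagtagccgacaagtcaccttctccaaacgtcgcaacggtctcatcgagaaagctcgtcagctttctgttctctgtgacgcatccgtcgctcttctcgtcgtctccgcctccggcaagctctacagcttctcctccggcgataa
FLM, chr1:28955679-28955863, plus strand: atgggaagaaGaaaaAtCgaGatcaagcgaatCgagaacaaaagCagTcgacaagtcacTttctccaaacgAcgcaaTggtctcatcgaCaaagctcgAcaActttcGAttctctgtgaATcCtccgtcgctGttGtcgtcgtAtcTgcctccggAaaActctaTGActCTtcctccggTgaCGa
MAF2, chr5:25982415-25982599, plus strand: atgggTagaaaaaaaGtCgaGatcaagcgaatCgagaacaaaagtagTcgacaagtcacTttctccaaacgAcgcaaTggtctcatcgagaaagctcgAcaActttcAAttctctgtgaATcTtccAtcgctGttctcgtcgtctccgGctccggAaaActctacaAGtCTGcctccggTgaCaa
MAF3, chr5:25987527-25987711, plus strand: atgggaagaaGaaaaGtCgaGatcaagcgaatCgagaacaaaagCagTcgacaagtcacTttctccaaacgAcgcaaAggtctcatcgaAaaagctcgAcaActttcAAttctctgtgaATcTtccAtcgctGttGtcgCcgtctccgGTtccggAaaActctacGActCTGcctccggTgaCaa
MAF4, chr5:25992310-25992494, plus strand: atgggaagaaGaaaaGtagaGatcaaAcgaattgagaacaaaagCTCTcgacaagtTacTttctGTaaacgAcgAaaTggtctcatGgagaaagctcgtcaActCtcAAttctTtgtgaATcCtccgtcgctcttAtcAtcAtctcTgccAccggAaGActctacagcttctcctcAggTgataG
MAF5, chr5:25997671-25997855, plus strand: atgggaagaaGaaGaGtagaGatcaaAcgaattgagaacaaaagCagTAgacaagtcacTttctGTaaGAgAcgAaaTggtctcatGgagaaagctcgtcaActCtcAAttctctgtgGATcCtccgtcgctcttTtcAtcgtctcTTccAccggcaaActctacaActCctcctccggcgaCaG

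FLC shared 81.1% of these bases with MAF4 and with MAF5, and up to 84.9% with MAF2. Closer pairs were MAF2 and MAF3 with 94.6% identical bases, FLM and MAF3 with 92.4%, FLM and MAF2 with 90.8%, and MAF4 and MAF5 with 89.7%. Over the whole representative transcript, 0 of 983 stretches of 60 bases of FLC matched another member with up to 2 mismatches. The like counts were 111 of 813 for FLM (13.7%), 226 of 1014 for MAF2 (22.3%) and 229 of 776 for MAF3 (29.5%), against 6 of 933 for MAF4 and 6 of 731 for MAF5. Reads were 60 to 83 bases long, so values of FLM, MAF2 and MAF3 are uncertain to the extent that such reads were shared among them. FLC has no such stretch among these A. thaliana sequences at up to 2 mismatches. How A. arenosa reads fit the members was not tested.

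Leaf markers stood high in every parental column. Summed over 5 such genes they reached 15635 to 20622 RPKM in A. arenosa and 3697, 13879 and 35307 RPKM in A. thaliana, and their part in the member differences was not tested. Of 4 flower markers, SEP2 had 8.29, 17.7 and 15.1 RPKM in A. arenosa, against 0.0964, 0.162 and 0.0600 RPKM in A. thaliana, while AG, AP3 and PI stayed at or under 0.585 RPKM in every A. arenosa column and 0.679 RPKM in every A. thaliana column. Root markers were listed at 0 in A. arenosa and at up to 0.129 RPKM in A. thaliana. Ribosomal RNA, with 4 listed transcripts, held 47.6% of all RPKM in A. arenosa replicate 1 and 0.130% to 1.68% in the remaining parental columns, so results between the parents are also given without that column. Depth per library is unknown, since RPKM do not give it.

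FLC was the member with the highest level in A. arenosa and one of the lowest in A. thaliana, while MAF2 was the highest in A. thaliana and low in A. arenosa. Of the 4 members that passed the filter of 5 RPKM in the higher parent, FLC was higher in A. arenosa and MAF2 lower, at a 2-fold difference or more and an adjusted p below 0.05. Among all 12742 genes compared, 10.6% passed as higher (1357 genes) and 4.21% as lower (536 genes) in A. arenosa; centred on the median of all genes, 866 passed as higher and 817 as lower. Leaving out 1 column moved the count of higher calls to 723 (without A. arenosa replicate 2), 897 (without A. arenosa replicate 3), 771 (without A. thaliana replicate 2) or 2239 (without A. thaliana replicate 3), and that of lower calls to 328 (without A. arenosa replicate 2) or 293 (without A. thaliana replicate 2). The median difference of all genes was 0.31 on the log2(RPKM + 1) scale, toward A. arenosa, and relative to it FLC stood at 4.15, FLM at −1.01, MAF2 at −2.49 and MAF3 at −1.12.

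FLC (chr5:3173382-3179448, minus strand) had 43.8, 38.1 and 20.6 RPKM in the 3 A. arenosa columns, against 0.611, 0.572 and 0.406 RPKM in the A. thaliana columns. Every A. arenosa column lay far above every A. thaliana column. The means were 34.2 ± 12.1 RPKM in the A. arenosa columns and 0.529 ± 0.109 RPKM in those of A. thaliana (SD, n = 3 each). On the log2(RPKM + 1) scale, which understates the change of low genes, the difference was 4.46 (SE 0.30, limma adjusted p = 0.000253). FLC stood above 93.9%, 92.6% and 85.8% of all genes in the A. arenosa columns and above 44.2%, 43.9% and 43.0% in the A. thaliana columns. In whole leaves, fewer cells that express a gene and less RNA per cell cannot be told apart. Counting is not stated to use strand, so reads of FLC and of an overlapping antisense transcript cannot be told apart either.

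MAF2 (chr5:25982254-25986435, plus strand), a repressor known to act against flowering after short cold spells, had 2.81, 2.36 and 1.49 RPKM in A. arenosa, against 14.9, 15.1 and 10.5 RPKM in A. thaliana. The highest A. arenosa column lay well below the lowest A. thaliana column. Means were 2.22 ± 0.671 RPKM in the A. arenosa columns and 13.5 ± 2.61 RPKM in those of A. thaliana (SD, n = 3 each). The log2 difference was −2.18 (SE 0.25, limma adjusted p = 0.00182). With 5 in place of 1 added to the RPKM, the difference was 2.77 for FLC and −1.35 for MAF2, both still called. Without A. arenosa replicate 1, the column rich in ribosomal RNA, the difference was 4.25 for FLC and −2.31 for MAF2, and both calls held; it was −0.62 for FLM and −0.99 for MAF3, neither of which passed (limma adjusted p = 0.148 and 0.116).

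FLM (chr1:28955483-28960234, plus strand), a repressor whose splicing is known to respond to ambient temperature, had 4.40, 4.38 and 6.20 RPKM in A. arenosa, against 8.92, 9.73 and 7.28 RPKM in A. thaliana. The columns of the species did not overlap; among all genes compared, 38.9% had columns that did not overlap in either direction. The log2 difference of −0.69 (SE 0.22, 95% interval −1.20 to −0.18) missed the threshold (limma adjusted p = 0.0713). Relative to the median of all genes it passed, at −1.01 (adjusted p = 0.0234).

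MAF3 (chr5:25987309-25991412, plus strand), a close relative of MAF2 and its neighbour on the chromosome, had 4.72, 3.69 and 2.22 RPKM in A. arenosa, against 7.10, 9.38 and 4.51 RPKM in A. thaliana. The highest A. arenosa column exceeded the lowest A. thaliana column. The log2 difference of −0.81 (SE 0.33, 95% interval −1.59 to −0.03) did not pass (limma adjusted p = 0.140). Without A. thaliana replicate 3 it passed, at −1.05 (adjusted p = 0.0472).

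MAF4 and MAF5, the remaining genes of the MAF2 to MAF5 cluster, did not reach 5 RPKM in either parent and were left out of the main comparison. MAF5 (chr5:25997504-26002619, plus strand) had 2.42, 3.60 and 3.67 RPKM in A. arenosa, against 0.990, 0.640 and 0.345 RPKM in A. thaliana. All A. arenosa columns were above all A. thaliana columns, and the share of low genes without overlap was not counted. With no filter on low values the log2 difference of MAF5 was 1.36 (SE 0.22, limma adjusted p = 0.0285) and passed. In that fit 1551 of 32309 genes passed as higher. MAF4 (chr5:25992193-25996202, plus strand) had 0.653, 0.593 and 0.174 RPKM in A. arenosa, while 1 A. thaliana column had 0.0660 RPKM and the others were listed at 0. With no filter its log2 difference of 0.51 did not pass (adjusted p = 0.109).

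**Figure D1:**
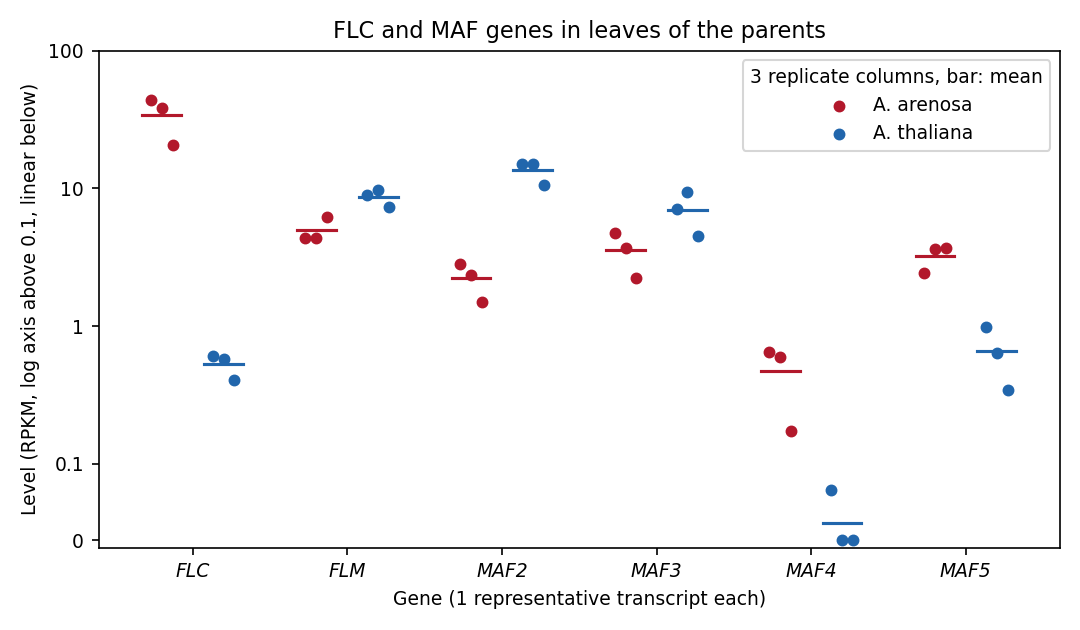
Level of the 6 genes in RPKM, on an axis that is logarithmic above 0.1 and linear below, in 3 A. arenosa columns (red) and 3 A. thaliana columns (blue), with bars at the means. FLC lies between 20.6 and 43.8 RPKM in A. arenosa and between 0.406 and 0.611 RPKM in A. thaliana, while MAF2 lies between 1.49 and 2.81 RPKM in A. arenosa and between 10.5 and 15.1 RPKM in A. thaliana.

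RPKM are per length, so levels can be ordered among the members. In A. arenosa the order by mean was FLC, FLM (4.99 ± 1.05 RPKM), MAF3 (3.54 ± 1.26), MAF5 (3.23 ± 0.701), MAF2 (2.22 ± 0.671) and MAF4 (0.473 ± 0.261). There FLC stood clear of FLM and MAF2 clear of MAF4, while the columns of FLM and MAF3, of MAF3 and MAF5, and of MAF5 and MAF2 overlapped. In A. thaliana the order was MAF2, FLM (8.64 ± 1.25 RPKM), MAF3 (7.00 ± 2.44), MAF5 (0.658 ± 0.323), FLC and MAF4 (all SD, n = 3). Columns of FLM and MAF3 overlapped there, and so did those of MAF5 and FLC, while the other neighbours in the order stood apart.

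The summed level of the 6 genes was 58.9, 52.7 and 34.4 RPKM in A. arenosa, against 32.6, 35.4 and 23.0 RPKM in A. thaliana. The 2 species overlapped in the sum, and the make-up differed. FLC gave 74.5%, 72.3% and 60.0% of the sum in A. arenosa and 1.87%, 1.61% and 1.76% in A. thaliana. MAF2 gave 4.78%, 4.48% and 4.34% in A. arenosa and 45.8%, 42.6% and 45.6% in A. thaliana. FLM gave 7.47%, 8.31% and 18.0% in A. arenosa and 27.3%, 27.5% and 31.6% in A. thaliana. A sum in which 1 member dominates lowers the shares of all others, so these shares are not independent of each other.

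**Figure D2:**
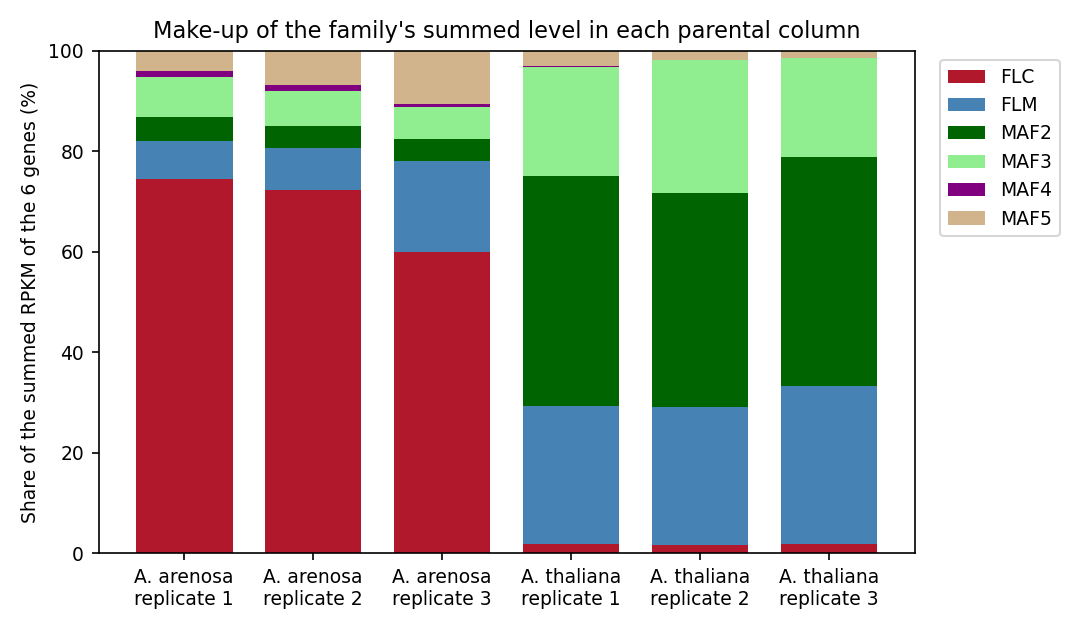
Share of each gene, in percent, in the summed RPKM of the 6 genes, one stacked bar per parental column, A. arenosa on the left and A. thaliana on the right. FLC fills 60.0% to 74.5% of the A. arenosa bars and under 2% of the A. thaliana bars, where MAF2 holds 42.6% to 45.8%.

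Isoforms of a gene share most or some of their exon bases, so their values are not separate measurements. The 3 FLC isoforms have 927 exon bases in common and differ at the 3′ end. AT5G10140.2 had 5.91, 14.6 and 16.8 RPKM in A. arenosa, against 0.527, 0.543 and 0.463 RPKM in A. thaliana, and AT5G10140.3 had 26.3, 8.72 and 20.7 RPKM in A. arenosa, against 0.584, 0.999 and 0.640 RPKM in A. thaliana. With every transcript as a feature of its own, all 3 passed as higher in A. arenosa, with log2 differences of 4.46 for AT5G10140.1, 3.04 for AT5G10140.2 and 3.37 for AT5G10140.3. Of 15606 transcripts compared in that fit, 1506 passed as higher and 619 as lower. Within A. arenosa the share of AT5G10140.1 in the isoform sum ranged from 35.5% to 62.0%, and that of AT5G10140.2 from 7.76% to 28.9%. The split among isoforms thus varied between columns, and how far this reflects the division of shared reads was not tested.

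All 3 MAF2 isoforms passed as lower in A. arenosa, where 619 of 15606 transcripts did. AT5G65050.3 holds an exon of 42 bases, chr5:25985654-25985695 on the plus strand, that AT5G65050.1 lacks. The same bases begin the last exon of AT5G65050.2, and they are shown because they tell AT5G65050.1 from the other isoforms.
MAF2, exon of AT5G65050.3: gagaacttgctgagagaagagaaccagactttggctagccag

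AT5G65050.1 averaged 1.89 ± 0.375 RPKM in the A. arenosa columns and 9.65 ± 1.81 RPKM in those of A. thaliana (log2 difference −1.87, limma adjusted p = 0.00276). AT5G65050.2 averaged 2.40 ± 1.22 RPKM in the A. arenosa columns and 6.38 ± 0.748 RPKM in those of A. thaliana (log2 difference −1.17, limma adjusted p = 0.0405; SD, n = 3 each). For MAF3 the call depended on the isoform. AT5G65060.1 had 2.77, 2.53 and 1.87 RPKM in A. arenosa, against 6.13, 8.08 and 4.51 RPKM in A. thaliana, with no overlap, and passed at −1.07 (adjusted p = 0.0381), while AT5G65060.2, used above, did not. In that fit 619 of 15606 transcripts passed as lower, and the share of transcripts without overlap was not counted.

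FLM isoforms AT1G77080.2 and AT1G77080.4 hold alternative exons and are known as FLM-delta and FLM-beta. FLM-beta is known as the form that represses flowering with SVP, and the share of the forms is known to shift with temperature. The exons are shown because the allele values below are given for each form. Both are from TAIR10.1, chr1:28958456-28958501 and chr1:28958334-28958391, on the plus strand. AT1G77080.5 also holds the exon shown for AT1G77080.4, and its bases lie within the first listed exon of AT1G77080.3. That exon thus tells AT1G77080.4 from AT1G77080.2 and not from the other isoforms.
FLM, exon of AT1G77080.2: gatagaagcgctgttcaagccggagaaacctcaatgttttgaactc
FLM, exon of AT1G77080.4: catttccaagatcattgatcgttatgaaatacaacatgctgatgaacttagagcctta

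AT1G77080.4 had 4.37, 5.03 and 4.21 RPKM in A. arenosa, against 7.78, 7.22 and 5.90 RPKM in A. thaliana. AT1G77080.5 had 3.59, 4.56 and 2.01 RPKM in A. arenosa, against 7.02, 4.81 and 5.51 RPKM in A. thaliana. Neither difference passed (limma, log2 −0.52 with adjusted p = 0.117 and −0.66 with adjusted p = 0.173). The A. arenosa columns were below the A. thaliana columns in both, for AT1G77080.5 only by 4.56 against 4.81 RPKM. The share of transcripts without overlap was not counted. AT1G77080.3 was low, at 0.125 to 1.83 RPKM in A. arenosa and 0.337 to 1.01 RPKM in A. thaliana. The ratio of AT1G77080.2 to AT1G77080.4 was 0.872 to 1.47 in A. arenosa and 1.15 to 1.35 in A. thaliana, which overlap.

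**Figure D3:**
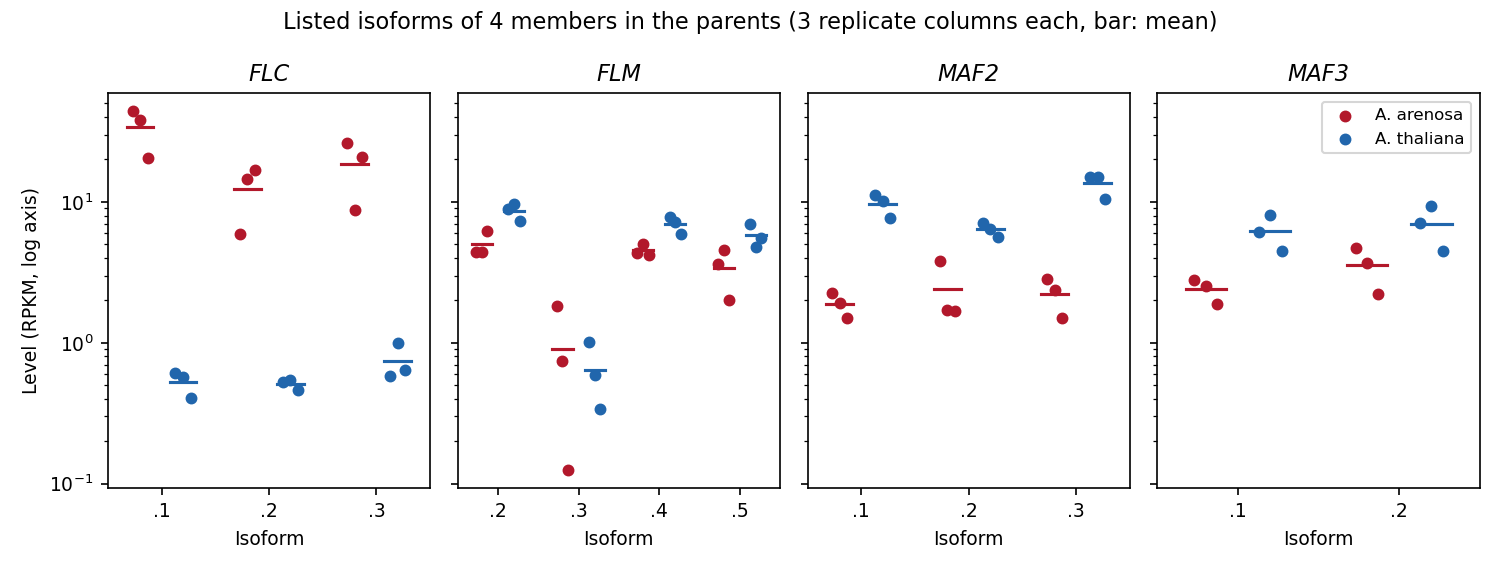
Level in RPKM, on a log axis, of each listed isoform of FLC, FLM, MAF2 and MAF3 in 3 A. arenosa columns (red) and 3 A. thaliana columns (blue), with bars at the means. Isoforms of FLC lie at 5.91 RPKM or more in A. arenosa and at 0.999 RPKM or less in A. thaliana, and those of MAF2 lie lower in A. arenosa.

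In the F1, FLM was read mostly from the A. thaliana allele. For AT1G77080.2 the A. arenosa allele had 1.39, 3.53 and 3.62 RPKM, against 8.00, 12.4 and 11.4 RPKM of the A. thaliana allele. The alleles did not overlap in any column, and means were 2.85 ± 1.26 RPKM for the A. arenosa allele and 10.6 ± 2.33 RPKM for the A. thaliana allele (SD, n = 3). The log2 ratio within columns was −1.64 (SE 0.17, limma adjusted p = 0.00327); of 10222 genes compared, 4.42% passed in this direction. With 5 added in place of 1 it was −0.996, just under 2-fold. The A. arenosa allele thus made up 14.8%, 22.1% and 24.0% of the total. Had the alleles kept the levels of the parents, the share would be 36.6%, or 31.1% to 46.0% over the 9 pairs of parental columns. The 3 F1 shares lie below that range, but how many other genes leave theirs was not counted. The test of the parental difference against the allele ratio, given below, did not pass.

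AT1G77080.4 gave like shares of the A. arenosa allele, 14.4%, 20.6% and 23.9%, against 39.4% from the parental means (log2 ratio −1.59, limma adjusted p = 0.00360). Of 12939 transcripts compared in that fit, 593 passed toward the A. thaliana allele. AT1G77080.5 totalled 11.9 RPKM in F1 replicate 1, and 0.316 and 0.20 RPKM in the others, which leaves its allele share in those columns with little behind it. The difference between the parental difference and the allele ratio, the trans term, was 0.95 for AT1G77080.2 (SE 0.28, 95% interval 0.33 to 1.56) and did not pass (limma adjusted p = 0.214); its median over all genes was 0.23, and 0.142% of genes passed in either direction (4 higher and 10 lower). Without A. thaliana replicate 3 that count was 370 higher and 85 lower, and FLM, at 0.84 (adjusted p = 0.103), still did not pass.

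The FLM total in the F1, for AT1G77080.2, was 9.39, 16.0 and 15.1 RPKM, against 4.40, 4.38 and 6.20 RPKM in A. arenosa and 8.92, 9.73 and 7.28 RPKM in A. thaliana. All F1 columns were above all A. arenosa columns, and F1 replicate 1 lay within the range of A. thaliana. The share of genes whose F1 and A. arenosa columns do not overlap was not counted. Against A. arenosa the log2 difference was 1.25 (SE 0.23, limma adjusted p = 0.0360) and passed, as 0.95% of genes did in this direction (99 genes, and from 18 without A. arenosa replicate 1 to 225 without A. thaliana replicate 3). The call was lost without any 1 of A. arenosa replicates 1, 2 or 3, A. thaliana replicate 2, or F1 replicates 2 or 3, with adjusted p up to 0.143, and it was under 2-fold with 5 added (0.87) or with the mean of the isoforms (0.89). The other isoforms did not pass: AT1G77080.4 differed from A. arenosa by 0.86, under 2-fold (adjusted p = 0.0480), and AT1G77080.5 by −0.64 (SE 0.78, adjusted p = 0.688). F1 replicates 2 and 3, in which AT1G77080.2 was highest, were those in which AT1G77080.5 was lowest. Against A. thaliana the difference was 0.56 (SE 0.23, 95% interval 0.04 to 1.08, adjusted p = 0.153), where 4.27% of genes passed as higher (445 genes) and the median of all genes was 0.33; relative to that median FLM stood at 0.23, and 18 genes passed as higher. With limma that count was 0 without A. thaliana replicate 2 or without F1 replicate 3 (1879 and 2214 genes at an unadjusted p below 0.05 in either direction), and lay between 10 (without F1 replicate 2) and 1191 (without A. thaliana replicate 3) on leaving out another column. Against the mid-parent value (parents averaged before taking log2) it was 0.87 (SE 0.20, 95% interval 0.41 to 1.32, adjusted p = 0.0983), where 0.106% passed in either direction (11 genes, all higher) and the median was 0.17, leaving FLM at 0.69 relative to it. With limma 0 genes passed without A. thaliana replicate 2, F1 replicate 2 or F1 replicate 3 (1343, 1157 and 1307 at an unadjusted p below 0.05). These comparisons share the F1 columns.

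Each allele was also set against its own parent after doubling, since the F1 is taken to carry 2 copies of each genome and an autotetraploid 4. For the A. arenosa allele the log2 difference from A. arenosa was 0.09 (SE 0.35, 95% interval −0.71 to 0.88, limma adjusted p = 0.934), where 0.0393% of genes passed as higher (4 genes, and 7 with the replicate number as a block); its sign turned without F1 replicate 2 (−0.09) or 3 (−0.10). For the A. thaliana allele the log2 difference from A. thaliana was 1.19 (SE 0.23, 95% interval 0.66 to 1.73) and just missed the threshold (adjusted p = 0.0558), where 1.31% passed as higher (134 genes) and the median of all genes was 0.30. Relative to that median it was under 2-fold (0.89, adjusted p = 0.143), and so it was with the mean of the isoforms (0.89) and with 5 added in place of 1 (0.93). It passed without A. thaliana replicate 3 (1.09, adjusted p = 0.0359) and without F1 replicate 1 (1.37, adjusted p = 0.0484), and had adjusted p-values up to 0.227 on leaving out another column. With limma 0 genes passed as higher without A. thaliana replicate 2 (1471 at an unadjusted p below 0.05 in either direction) and 856 without A. thaliana replicate 3.

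The F8 and A. suecica libraries have no replicate and so no test. In F8 the A. arenosa allele of AT1G77080.2 had 1.36 RPKM and the A. thaliana allele 6.79 RPKM, a share of 16.7%, within the range of the F1. A. suecica had 8.08 RPKM of the A. arenosa allele and 10.2 RPKM of the A. thaliana allele, a share of 44.2%, above all F1 columns and F8. The A. thaliana allele was thus past 2-fold in F8 (log2 ratio −1.72), as in 7.66% of genes, and not in A. suecica (−0.30, or −0.73 with the mean of the isoforms), where 11.3% of genes were. With 5 added in place of 1 the F8 ratio was under 2-fold, at −0.89.

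In A. suecica the share depended on the isoform. For AT1G77080.4 the A. arenosa allele had 8.33 RPKM and the A. thaliana allele 14.0 RPKM (37.4%), and for AT1G77080.5 the values were 4.42 and 12.3 RPKM (26.4%). The like shares in F8 were 18.0% and 15.8%, from 1.22 and 5.58 RPKM and from 0.861 and 4.58 RPKM. In both libraries the A. thaliana allele was the higher one for each of the 3 isoforms. Totals of AT1G77080.2 were 18.3 RPKM in A. suecica and 8.15 RPKM in F8, a log2 difference of 1.08, and 13.3% of genes were 2-fold higher or more in A. suecica. The median of all genes was 0.22; the FLM difference was under 2-fold relative to it (0.85) and with 5 added in place of 1 (0.83). Against the mid-parent value A. suecica was higher by 1.31 on the log2 scale, where the median gene was higher by 0.39 and 15.3% of genes were 2-fold higher or more. The A. suecica total was above every F1 column (log2 difference 0.45 from the F1 mean, or 1.03 with the mean of the isoforms, with an SD of 0.39 between F1 columns). The ratio of AT1G77080.2 to AT1G77080.4 was 0.821 in A. suecica, 1.2 in F8, and 1.01, 1.68 and 1.83 in the F1.

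**Figure D4:**
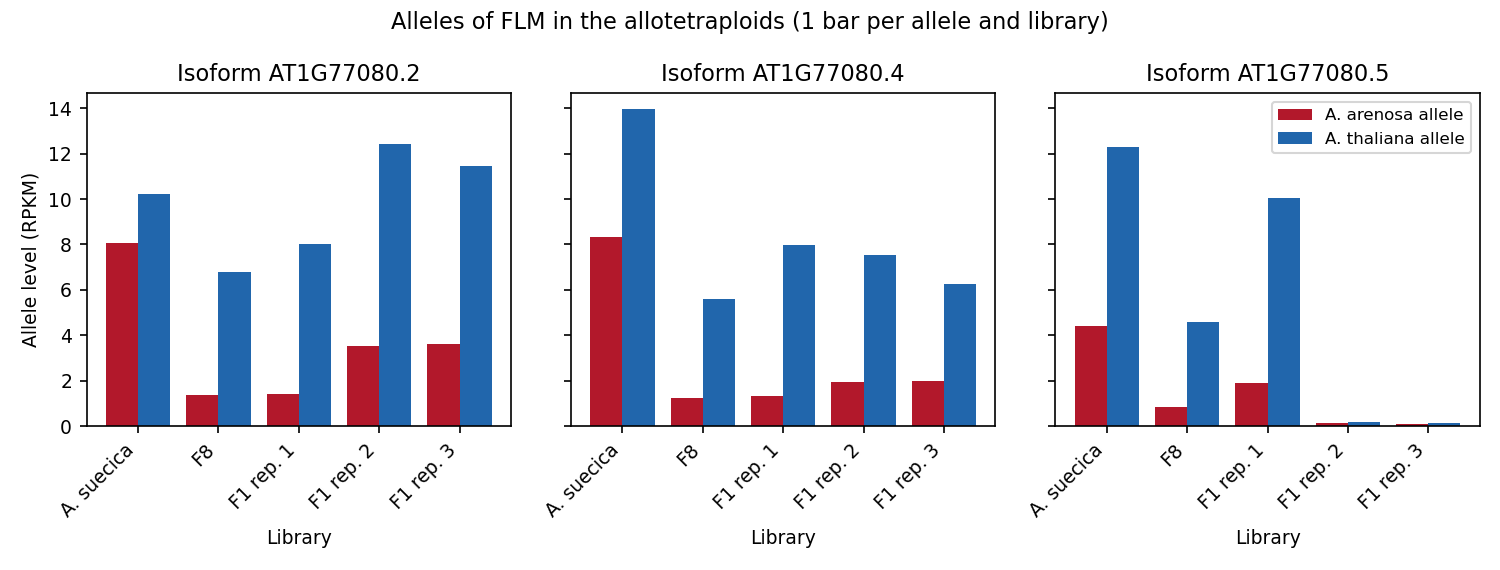
RPKM of the A. arenosa allele (red, left) and of the A. thaliana allele (blue, right) of 3 FLM isoforms in A. suecica, F8 and the 3 F1 columns, one bar per allele and library. The A. thaliana bar is the taller one in every pair, and the red bars are tallest in A. suecica, at 8.08 RPKM for AT1G77080.2, against 1.39 to 3.62 RPKM in the F1.

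Genes next to the members on the chromosome were taken up to 3 on each side. Of 18 such genes, 8 passed the filter, and 3 of these had an unadjusted p below 0.05, as 4185 of all 12742 genes compared did. Their limma adjusted p-values ran from 0.0845 to 0.898 over the 8 genes. Next to FLC, AT5G10150 averaged 14.1 ± 1.25 RPKM in the A. arenosa columns and 7.32 ± 7.47 RPKM in those of A. thaliana (SD, n = 3 each), a log2 difference of 1.25 (adjusted p = 0.195). MIPS3, an enzyme of inositol synthesis further along, averaged 26.0 ± 10.2 RPKM in the A. arenosa columns and 12.7 ± 0.999 RPKM in those of A. thaliana (0.91, adjusted p = 0.0901). Beside FLM, AT1G77060 averaged 50.4 ± 19.8 RPKM in the A. arenosa columns and 15.5 ± 14.6 RPKM in those of A. thaliana (1.91, adjusted p = 0.0845), opposite in sign to FLM. AT1G77030, on the same side, averaged 3.02 ± 1.94 RPKM in the A. arenosa columns and 5.85 ± 0.917 RPKM in those of A. thaliana (−0.86, adjusted p = 0.144), the sign of FLM. These last 3 genes are those with an unadjusted p below 0.05. The other 4 differed by 0.41 (AT5G10160), 0.11 (AT1G77090), −0.53 (ANNAT2) and −0.33 (ACX2).

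**Figure D5:**
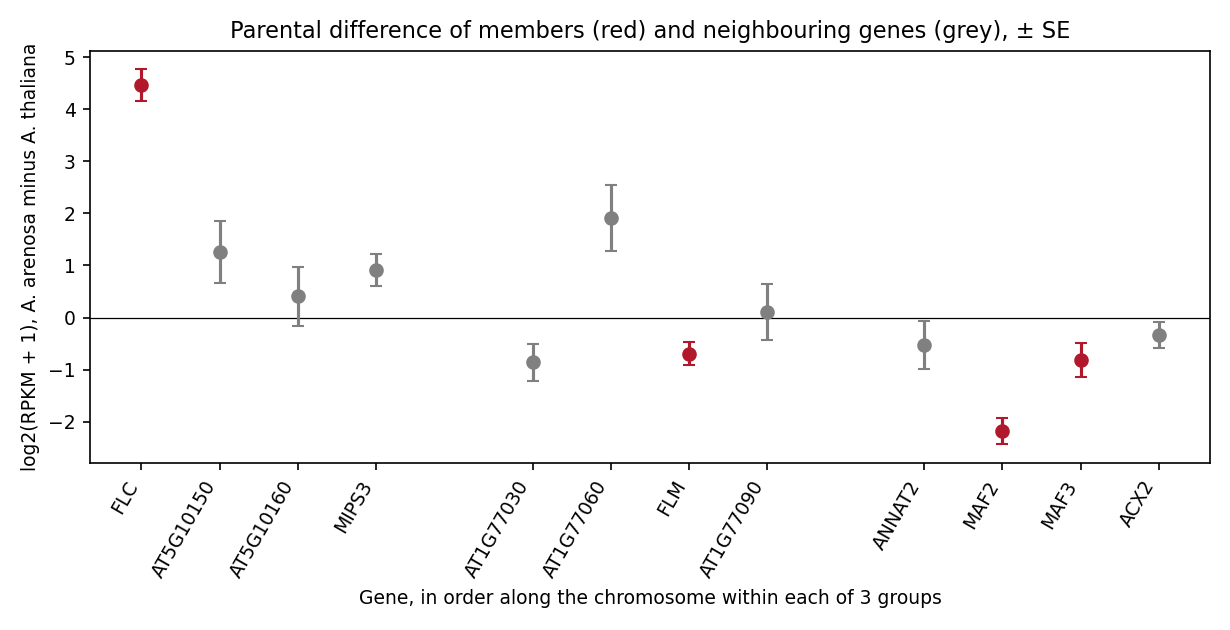
Parental difference on the log2(RPKM + 1) scale, A. arenosa minus A. thaliana, of the members past the filter (red) and of neighbouring genes past it (grey), with SE from the limma fit, in chromosome order within the FLC, FLM and MAF2 to MAF5 groups. FLC at 4.46 stands above its grey neighbours and MAF2 at −2.18 below its own.

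A list of 61 flowering genes held regulators of FLC, partners and co-repressors, and targets and integrators. Of these, 31 were compared between the parents and 4 passed, all higher in A. arenosa, beside 10.6% of all genes that passed as higher and 4.21% as lower. The median difference of the 31 was 0.34, against 0.31 over all genes. Among 19 FLC activators 12 were compared and 1 passed, FRL1, a relative of FRIGIDA, with a log2 difference of 1.11 (limma adjusted p = 0.0222). UBC1 (0.55) and UBC2 (0.49), enzymes of histone ubiquitination, were the largest of those that did not pass. FRI itself, named after its values were seen, stayed under the filter, with 2.0, 2.84 and 3.02 RPKM in A. arenosa, against 0.278, 0.311 and 0.254 RPKM in A. thaliana. The A. arenosa columns of FRI lay above all A. thaliana columns, without a test. Among genes past the filter 38.9% had columns that did not overlap in either direction, and the share among lower genes was not counted.

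Among 10 genes of the autonomous pathway, which represses FLC, 4 were compared and 2 passed as higher in A. arenosa, where 10.6% of all genes did: FLK, an RNA-binding protein, by 1.1 (adjusted p = 0.0270) and LDL2, a histone demethylase, by 1.87 (adjusted p = 0.00440). LDL1, its relative, was below 2-fold at 0.97 (adjusted p = 0.0247), and FVE differed by 0.31. Relative to the median of all genes FRL1 and FLK stood at 0.80 and 0.79, under 2-fold. Of the 6 vernalization and Polycomb genes compared, SWN, a histone methyltransferase, differed most, by −0.65 (adjusted p = 0.0619), then MSI1, a subunit of the Polycomb complex, by 0.54 (adjusted p = 0.0765).

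Among partners and co-repressors TEM2, which represses FT, differed by −1.36 and just missed the threshold (limma adjusted p = 0.0522), and SNZ differed by −0.76. SVP, the partner of FLC, named here after its values were seen, had 25.7 to 35.5 RPKM in A. arenosa and 28.1 to 36.4 RPKM in A. thaliana. Among genes listed together as targets and integrators, AGL24, a promoter of flowering, had 25.2, 15.2 and 17.6 RPKM in A. arenosa, against 2.58, 4.04 and 2.34 RPKM in A. thaliana. It passed at 2.34 (adjusted p = 0.00173), and whether it responds to the family was not tested. SOC1, which FLC is known to repress, had 31.6, 29.0 and 32.2 RPKM in A. arenosa, against 33.6, 72.4 and 42.1 RPKM in A. thaliana. All SOC1 columns of A. arenosa were below those of A. thaliana, the nearest at 32.2 and 33.6 RPKM. Among all genes compared, 38.9% had columns that did not overlap in either direction. The log2 difference of SOC1, −0.58, did not pass (limma adjusted p = 0.250), nor did that of SPL3, at 0.45. Whether SOC1 responds to the family was not tested.

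In the F1, 30 of the 61 genes were compared between alleles. The A. arenosa allele was higher for 3, UBC2 (1.09), TEM2 (1.16) and SNZ (1.06), and the A. thaliana allele for 2, VIP4 (−1.07) and ELF7 (−1.98). Over all genes compared, 8.47% passed toward the A. arenosa allele and 4.42% toward the A. thaliana allele. Of those that did not pass, the largest log2 ratios by role were those of VIP3 (0.86) and UBC1 (0.72), FLK (0.87) and FY (−0.59), VRN1 (−0.60) and LHP1 (−0.52), TEM1 (0.73) and SVP (0.37), and SOC1 (0.33).

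Genes with the pattern most like each member were sought by Pearson correlation of log2(RPKM + 1), as a description: libraries share depth and replicate columns, and 6 parental columns in 2 groups give high values to any gene that differs between the species. Over the 11 libraries and 9922 genes, PUT5 (0.953), ATSLY1 (0.945) and CUL3B (0.935) were closest to FLM. Over 6 columns AT1G27860, AT3G20555 and AT3G59370 were closest to FLC, AT2G34655, G3Pp5 and AT1G09280 to MAF2, DRT102, AT4G22753 and SAG13 to MAF3, AT2G04410, MEE38 and AT1G23530 to MAF4, and AT3G60470, CRH1 and CIPK4 to MAF5, all at 0.975 or more.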

How the data were processed

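Messenger RNA of rosette leaves was sequenced in 5 groups. The deposited values are RPKM of transcripts, made by the authors, per transcript in the parents and per allele in the allotetraploids, per the file headers. Reads were placed on TAIR 9, per the submitters' processing notes; the aligner and the rule that assigned reads to an allele were not given in the sources used here, and the loss of mismatched A. arenosa reads was not tested. The allele columns of a transcript were added up to a total. The F1 table holds alleles above 0 and the F8 and A. suecica tables totals above 2.0 RPKM.

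Each gene was represented by 1 transcript, the one with the highest mean among those in all tables where there were any, otherwise among all listed. Genes with a mean of at least 5 RPKM in the highest group were compared as log2(RPKM + 1) with limma 3.58.1 (trend) in R 4.3.3. Benjamini-Hochberg adjustment was over all genes, and calls needed 2-fold and adjusted p below 0.05. An interval is a 95% interval. Allele ratios were tested within F1 columns, for genes with a mean sum of alleles of at least 5 RPKM. The trans term took genes past both that filter and the parental one. Doubled alleles were filtered after doubling. The spread of the mid-parent comparison was carried through the log2 of the mean. Depth is unknown, so no counting interval is given. The tests were tried on simulated data with 1 spread for all genes and independent columns. That setting is simpler than these data, so the trial does not show how the tests behave here. Names, positions and sequences are from RefSeq's TAIR10.1, in which 31786 gene identifiers were found and 527 were not; positions are of TAIR10.1 only. Tables and plots were made in Python 3.11.15 (pandas 2.3.3, numpy 2.4.6, matplotlib 3.10.9).

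Same-numbered columns deviated together in A. arenosa and the F1 (correlations 0.289 to 0.319), so the number pairs them, a hint from the data and not the labels; those of A. arenosa and A. thaliana (−0.124 to 0.137) and of A. thaliana and the F1 (−0.264 to 0.536) did not. Members and gene lists were chosen with earlier results of these data known. Named genes are all members and isoforms, the 3 genes most correlated with each member, and, by role, the list genes that passed a test and the 2 largest that did not; FRI, SVP in the parents and the neighbouring genes fall outside this rule and were named after values were seen. No test compares a list with other genes.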

Additional observations from a re-analysis of the deposited data

How the results depend on the processing

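FLC and MAF2 kept their calls between the parents under every alternative tried (other pseudocounts, filter, isoforms, centring, no trend, a block for the replicate number, each column left out), with log2 differences of 2.77 to 5.71 for FLC and −2.58 to −1.35 for MAF2, and 4.25 to 4.78 and −2.34 to −2.0 with 1 column left out. FLM between the parents ranged from −0.83 to −0.61 with 1 column left out and passed at −1.01 when centred on all genes. MAF3 ranged from −1.05 to −0.58 and passed without A. thaliana replicate 3 (−1.05). MAF5, under the filter in the main fit, passed with no filter (1.36). So 2 to 3 members were called, depending on the setting. The FLM allele ratio in the F1 ranged from −1.74 to −1.50 with 1 column left out and fell short of 2-fold at −0.996 with a pseudocount of 5. The FLM total in the F1 against A. arenosa fell under 2-fold with a pseudocount of 5 (0.87) and with the mean of the isoforms (0.89), ranged from 1.12 to 1.48 with 1 column left out, and was 1.25 with the replicate block (adjusted p = 0.0490); the block changed no call of a member, while over all genes it moved the calls of the F1 above A. thaliana to 728, against 445, and those of the doubled A. thaliana allele above A. thaliana to 35, against 134. The doubled A. thaliana allele ranged from 1.07 to 1.37 and the doubled A. arenosa allele from −0.10 to 0.46 with 1 column left out, its sign turning without F1 replicate 2 (−0.09) or 3 (−0.10); the mean of the isoforms gave no value for it. The F8 allele ratio was −2.24 with a pseudocount of 0.1 and −0.89 with 5. In A. suecica the mean of the isoforms moved the allele ratio to −0.73 and the difference from the F1 to 1.03, and centring moved the difference from the mid-parent to 0.92. A separate spread for parents and alleles, chosen after seeing the data, kept the trans term short of the threshold. Over all genes, calls between the parents ranged from 723 to 2239 higher and 293 to 762 lower with 1 column left out, highest without A. thaliana replicate 3 and lowest without A. arenosa replicate 2 (higher) or A. thaliana replicate 2 (lower), and were 912 and 358 with a pseudocount of 5; F1 allele calls toward A. thaliana were 154 with that pseudocount, and calls of the F1 above A. arenosa ranged from 18 to 225 with 1 column left out, against 99. The cause of these shifts was not tested.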
